A study of Mus musculus with 8 samples.

Results

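Transcripts of the splicing machinery were followed in newborn mouse hearts without connexin43 and in wildtype newborn hearts. The genes were chosen by symbol: those whose probes carried a single symbol beginning with Snrp, Lsm, Sf3a, Sf3b, Prpf, Srsf or Hnrnp, and which were read on 3 or more arrays per genotype. Of 62 genes with such a symbol 55 met the limit, among 11804 features tested in all, of which 7603 were genes with 1 symbol and 4201 were probes without a single symbol. The 55 genes divided into 7 of the Snrp, 10 of the Lsm, 2 of the Sf3a, 4 of the Sf3b, 8 of the Prpf, 7 of the Srsf and 17 of the Hnrnp symbol group. No gene of the 7 groups differed between genotypes at an adjusted p of 0.05, while 41 of the 55 had a mean ratio above that of the median spot of the array.

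Each of 8 arrays was hybridised with Cy3-labelled cDNA of 3 pooled newborn hearts, next to a common reference in Cy5 that held adult mouse tissues of both sexes: stomach, spleen, gonads, lung, liver, kidney, brain, aorta and heart. There were 4 pools of connexin43 null hearts and 4 pools of wildtype hearts, all from C57BL mice. The labels give neither the age in days nor the sex of the newborns, nor how the null allele was made. Connexin43, the product of Gja1, is the main gap junction protein of working heart muscle, and mice that lack it are known to die soon after birth with a malformed outflow tract.

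The spliceosome removes introns from pre-mRNA. Its building blocks are small nuclear ribonucleoproteins (snRNPs), each made of a small nuclear RNA held by a ring of Sm or LSm proteins and of proteins particular to that particle. The SF3A and SF3B complexes belong to the U2 particle, which binds the branch site of the intron, and most PRPF proteins belong to the particles that form the catalytic core. SR proteins (Srsf genes) mostly promote the use of exons, whereas the abundant heterogeneous nuclear ribonucleoproteins (hnRNPs) coat nascent transcripts and often repress exons. In heart muscle, a change in splicing of titin and other sarcomere genes accompanies the step from fetal to adult life.

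Values below are on a log2 scale, heart over the reference, and set so that the median of all spots of an array is 0. A level of 0 therefore means the ratio of the median spot, and it is a ratio to the reference rather than an abundance. The direction of the ratio was taken from the data: sarcomere genes lay above genes of other adult tissues on 8 of 8 arrays. Spots with a value numbered 12971 on wildtype replicate 1 and 17879 to 23929 on the other arrays. Gja1, the targeted gene, read -0.29, 0.25, 0.12 and 0.22 on null replicates 1 to 4, and 1.04, 1.31, 0.99 and 0.79 on wildtype replicates 1 to 4. It averaged 0.08 ± 0.25 in null hearts, against 1.03 ± 0.21 in wildtype ones (SD over 4 arrays a genotype). The 4 null values of Gja1 lay below the 4 wildtype values, with an exact two-sided permutation p of 0.0286, the smallest that 70 assignments allow. In limma it had an adjusted p of 0.340. The labels do not say whether its 1 probe lies in the deleted part of the gene, and a probe outside that part would not check the labels.

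Wildtype replicate 1 stood apart for the splicing genes. Over the 49 genes with values on all arrays, its profile correlated with the mean of the other 7 arrays at r = 0.372, against 0.688 to 0.874 for each other array. This is a description across genes, which share the reference, the array and its dyes. The mean level of the 55 genes was 0.16, 0.11, 0.14 and 0.16 on null replicates 1 to 4, and 0.09, 0.16, 0.18 and 0.19 on wildtype replicates 1 to 4. The null means thus fell inside the range of the wildtype means, whose lowest value was that of replicate 1.

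**Figure D1:**
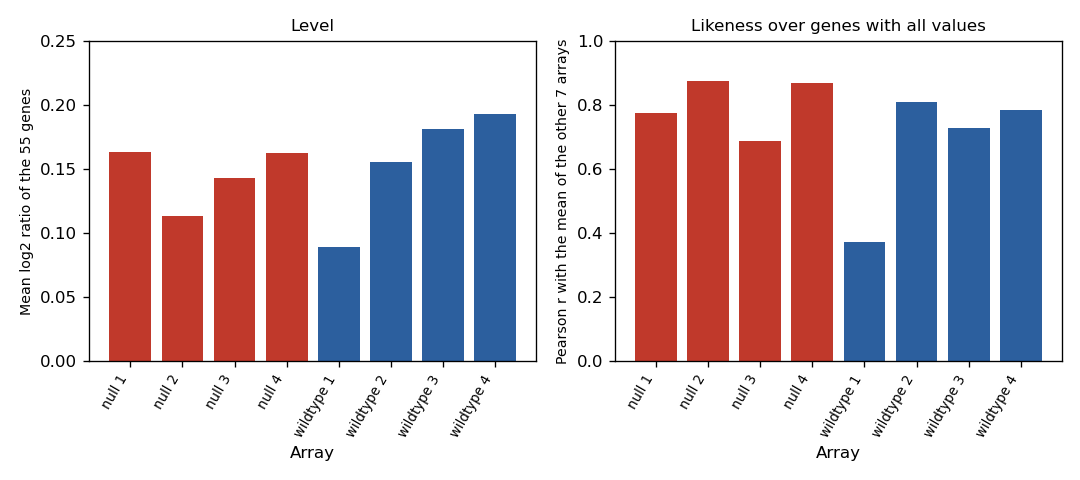
Left, mean log2 ratio of the 55 splicing genes on each array. Right, Pearson r of each array with the mean of the other 7, over the 49 genes measured on all arrays. Null arrays are red and wildtype arrays blue. Wildtype replicate 1 has the lowest bar in both panels, at 0.09 and 0.372.

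The 55 genes lie on 17 chromosomes of GRCm38.p6, and 52 had a promoter in the RefSeq table of that build. In the 250 bases before the start, the 52 promoters held a median of 19.5 CpG pairs, against 16 in the 6082 promoters of all measured genes. A CCAAT box (CCAAT, either strand) was present in 26 of the 52, or 50.0%, against 36.1% of the measured genes. The core of the ETS factor motif (CCGGAAG, either strand) was present in 14, or 26.9%, against 14.4%. A GC box (GGGCGG, either strand) was present in 32, or 61.5%, against 60.3%, and a TATA box (TATAAA, either strand) in 5, or 9.62%, against 6.35%. None of these motifs holds another. The palindromic motif of NRF1 and a long motif of YY1 were found in 0 of the 52, against 1.73% and 0.559%. A match describes the sequence and no more.

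Of the genes whose last 150 bases before the start overlap no annotated gene, 3 are shown as examples of these promoters. They are Hnrnpab, the highest of them by level, Lsm6, the lowest of all 55 genes, and Lsm5, the one with the smallest unadjusted p. All lie on the minus strand of GRCm38.p6, at chr11:51606882-51607031, chr8:78821153-78821302 and chr6:56704700-56704849, just upstream of the annotated start of the gene. Capitals mark matches to the GC box and the CCAAT box on either strand.
Hnrnpab: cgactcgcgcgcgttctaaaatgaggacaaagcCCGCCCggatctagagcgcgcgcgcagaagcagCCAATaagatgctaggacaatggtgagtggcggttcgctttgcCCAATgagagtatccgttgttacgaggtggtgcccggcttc
Lsm6: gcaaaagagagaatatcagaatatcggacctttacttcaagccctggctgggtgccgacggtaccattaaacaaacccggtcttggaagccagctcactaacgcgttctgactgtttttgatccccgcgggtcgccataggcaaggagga
Lsm5: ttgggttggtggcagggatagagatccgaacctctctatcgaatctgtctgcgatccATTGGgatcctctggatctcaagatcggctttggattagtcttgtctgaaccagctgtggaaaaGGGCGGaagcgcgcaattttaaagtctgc
The stretch of Hnrnpab holds 16 CpG pairs and 3 motif matches, that of Lsm6 9 CpG pairs and 0 matches, and that of Lsm5 7 CpG pairs and 2 matches.

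The level of the splicing genes over the reference was described first, with no test, since the dyes were never swapped and dye bias stays in a level. The 55 genes had a median level of 0.12 in null hearts and 0.17 in wildtype hearts, against -0.02 and 0.03 for all features. Of the 55 genes 41 (74.5%) had a mean over all arrays above 0, where 50.2% of all features had one. On every array with a value, 20 genes were above 0 and 2, Lsm6 and Lsm2, were below 0. Of the 11804 features, 2257 were above 0 and 2075 below 0 on every such array. The level was not particular to the 55: of 93 other splicing genes, from 3 lists given below, 72.0% had a mean above 0. On every array with a value 31 of the 93 were above 0. Tissue in bulk does not tell fewer cells of a type from less RNA per cell.

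The hnRNP genes had a median level of 0.32 in null and 0.29 in wildtype hearts, next to 0.32 in null and 0.25 in wildtype hearts for the 4 SF3B genes, and 15 of 17 hnRNP genes had a mean above 0. Hnrnpa1, which encodes a splicing repressor that also binds telomeres and microRNA precursors, had the highest level of all 55 genes. It read 0.78, 0.90, 1.00 and 0.89 on null replicates 1 to 4, and 0.78, 0.77, 0.54 and 0.98 on wildtype replicates 1 to 4. Over all arrays its mean was 0.83, or 1.78-fold the ratio of the median spot, and its null and wildtype values overlapped. The next highest were Hnrnpa2b1, an RNA-binding protein of mRNA transport, and Hnrnpab, with means of 0.48 each. Hnrnpa2b1 read 0.65, 0.54, 0.30 and 0.63 in null hearts and 0.10, 0.60, 0.53 and 0.51 in wildtype hearts, where the lowest value was on wildtype replicate 1. Hnrnph2, Hnrnpk and Hnrnpf followed, with means of 0.45, 0.45 and 0.43. The lowest level of the group was that of Hnrnpm, at a mean of -0.12.

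Genes of the Snrp, Sf3a, Sf3b, Prpf and Srsf groups had means from that of Sf3b1 down to that of Prpf4b. Among SF3B genes, Sf3b1, whose product holds the branch site, had the highest mean, 0.46, and Sf3b6, whose product contacts the branch point adenosine, the lowest, at -0.0044. Among SR protein genes Srsf4 had the highest mean, 0.36, and Srsf9 the lowest, -0.07. In the Prpf group the range ran from 0.22 for Prpf8, the scaffold of the catalytic core, to -0.20 for Prpf4b, which encodes a kinase of the spliceosome. Snrpb, which encodes an Sm ring protein, was the highest of the Snrp genes at 0.33, and Snrpa1, of the U2 particle, the lowest at -0.10. In the small Sf3a group the means were 0.07 for Sf3a3 and -0.08 for Sf3a1.

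Of the 10 LSm genes measured, 5 had a mean above 0, and their median level was -0.0032 in null hearts and 0.07 in wildtype hearts. The highest mean of the group, 0.30, was that of Lsm5. Lsm6, a member of the ring that binds the U6 small nuclear RNA and, in a cytoplasmic form, decaying mRNA, had the lowest level of all 55 genes. It read -0.85, -0.62 and -0.59 on null replicates 2 to 4 and had no value on null replicate 1, and it read -0.96, -0.50, -1.36 and -0.65 on wildtype replicates 1 to 4. Its mean of -0.79 was 1.73-fold below the ratio of the median spot. Lsm2, of the same ring, had a mean of -0.23, while Lsm8, which marks the nuclear form of the ring, had 0.11. The measured genes of this ring thus ran from -0.79 for Lsm6 to 0.30 for Lsm5.

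**Figure D2:**
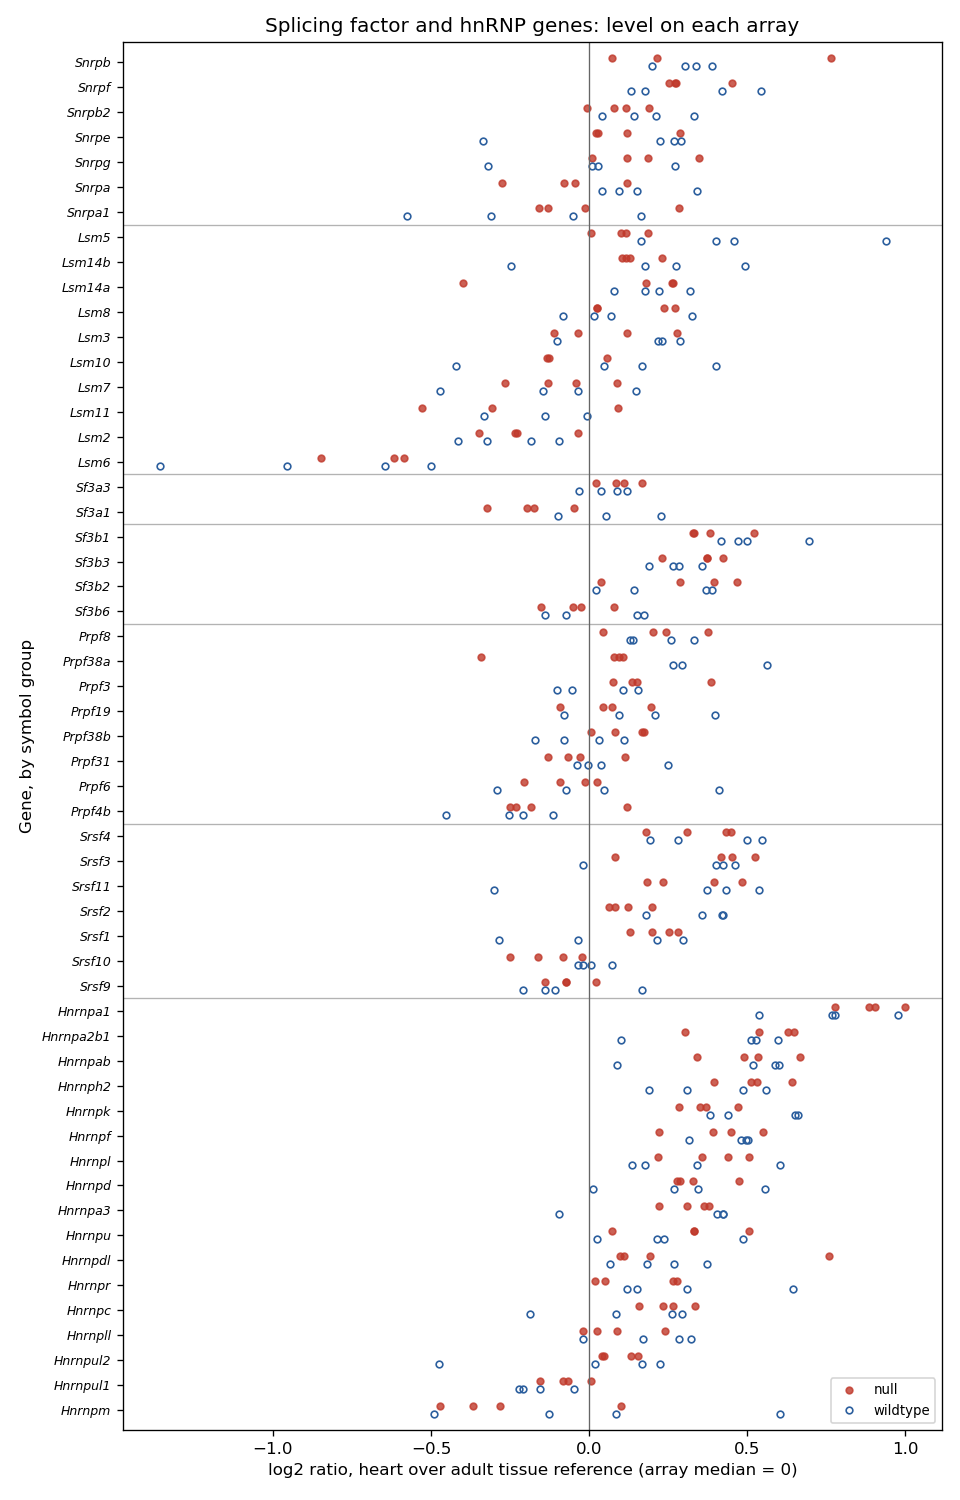
Log2 ratio of heart over reference (horizontal) of each of the 55 genes on each array, by symbol group and, within a group, from the highest to the lowest mean. Filled red points are null arrays and open blue points wildtype arrays. Hnrnpa1 stands highest, with means of 0.89 in null and 0.77 in wildtype hearts, and Lsm6 lowest, with -0.68 and -0.86.

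The main comparison asked whether transcript levels of splicing genes differ when connexin43 is absent. With limma and Benjamini-Hochberg adjustment over all features, 0 of the 55 genes passed an adjusted p of 0.05, where 0% of the 11804 features did. The smallest adjusted p among the 55 was 0.568. At an unadjusted p under 0.05, 0 of the 55 had higher values in null hearts, against 2.1% of all features, and 3 had lower values, against 6.13% of all features. Groups did not overlap for 0 genes in the direction of higher values (2% of all features) and for 1 gene, Prpf38a, in the direction of lower values (5.54% of all features). These shares of the 55 genes were at or below the background.

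Differences of the 55 genes had an SD of 0.14, against 0.21 over all features and 0.16 over the 93 other splicing genes. The difference, null minus wildtype on the log2 scale, was positive for 31 genes and negative for 24, and it was positive for 40.9% of all features. Its median was 0.03 over the 55 genes and -0.04 over all features, and it ranged from -0.39 to 0.19. Without wildtype replicate 1 the difference was positive for 22 genes and negative for 33, and 15 of the 55 had the other sign than with all arrays. The median of the 55 genes was then -0.03, that of all features -0.04, and 0 genes had an unadjusted p under 0.05 in either direction. The 95% interval of the difference was not adjusted for the number of genes. It lay within a 1.5-fold change either way for 51 of the 55 genes. The share was 75.6% for all features and 83.9% for the 93 other splicing genes. All features include probes without a single symbol, while 32 of the 55 genes combined several probes, so precision was not alike. The interval lay within a 2-fold change for all 55 genes measured. The 4 genes whose interval reached beyond 1.5-fold were Lsm5, Prpf38a and Hnrnpm on the lower side and Lsm6 on the higher side. No bound of the 55 intervals reached beyond 1.67-fold. An interval that holds 0 does not show that a gene was unchanged.

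**Figure D3:**
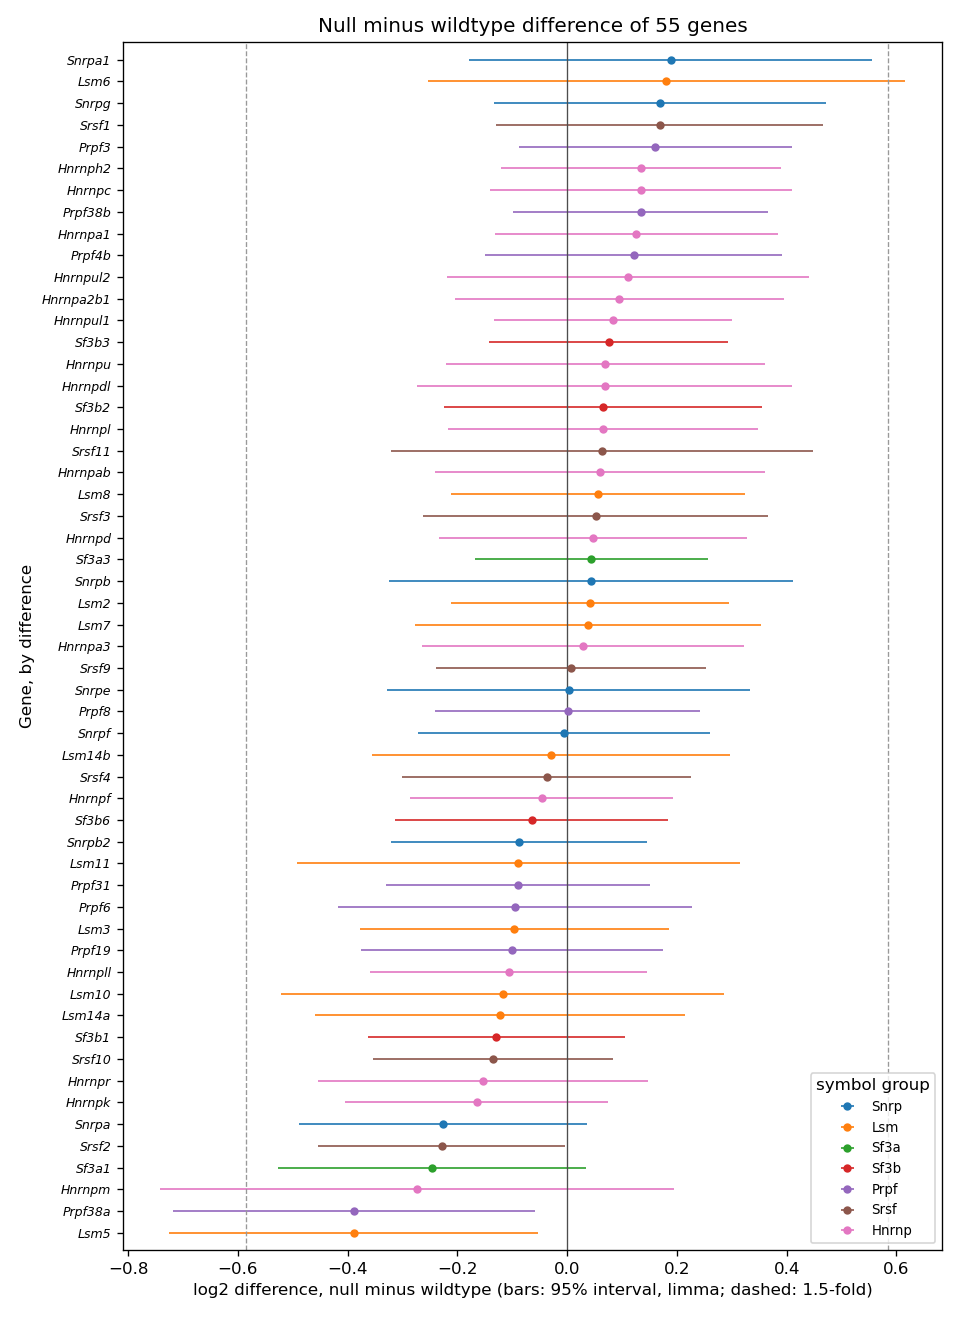
Null minus wildtype log2 difference of the 55 genes, sorted, with the 95% interval of the limma fit as bars and the symbol group as colour. The dashed lines mark 1.5-fold. Intervals of 3 genes, Lsm5, Prpf38a and Srsf2, leave out 0, and 4 intervals cross a dashed line.

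Small nuclear ribonucleoprotein genes had a median difference of 0.0028, with 4 of 7 positive. Snrpa encodes a protein that binds U1 small nuclear RNA. It read -0.04, -0.08, -0.27 and 0.12 in null hearts, and 0.34, 0.09, 0.04 and 0.15 in wildtype hearts. Its null values lay below the wildtype values except on null replicate 4, and the difference was -0.23 (SE 0.12, unadjusted p = 0.0833 and adjusted p = 0.616 in limma). The 2 probes of Snrpa gave differences of -0.32 and -0.08. Snrpa1 encodes a protein of the U2 particle. It read -0.01, -0.13, 0.29 and -0.16 in null hearts, and -0.31, -0.58, -0.05 and 0.16 in wildtype hearts, for a difference of 0.19 (SE 0.17, adjusted p = 0.761 in limma). The groups of Snrpa1 overlapped, and its 2 probes gave differences of 0.48 and -0.02. Of the Sm ring genes, Snrpg read 0.35, 0.12, 0.01 and 0.18 in null hearts and -0.32, 0.03, 0.27 and 0.0079 in wildtype hearts. The lowest value of Snrpg was again on wildtype replicate 1, and its difference of 0.17 (SE 0.14) was 0.06 without that array. Snrpe and Snrpf, of the same ring, had differences of 0.0028 and -0.0056.

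The LSm genes had a median difference of -0.06, with 4 of 10 positive. Lsm5, of the ring that binds U6 small nuclear RNA, read 0.19, 0.10, 0.0052 and 0.12 in null hearts, and 0.94, 0.46, 0.40 and 0.16 in wildtype hearts. The null values were close together and wildtype replicate 1 was far above all other arrays, while wildtype replicate 4 lay inside the null range. The difference of Lsm5 was -0.39 (SE 0.15, 95% interval -0.73 to -0.05, unadjusted p = 0.0273, adjusted p = 0.568 in limma). Without wildtype replicate 1 it was -0.24, with an unadjusted p of 0.0528. Of the other measured genes of the ring, Lsm2, Lsm3, Lsm6, Lsm7 and Lsm8 had differences of 0.04, -0.10, 0.18, 0.04 and 0.06, and none was tested against Lsm5. Without wildtype replicate 1 the difference of Lsm3 was -0.18. Lsm10 and Lsm11, which replace Sm proteins in the U7 particle of histone mRNA processing, had -0.12 and -0.09, each with missing arrays. Lsm14a and Lsm14b, which act in mRNA storage rather than in splicing, had -0.12 and -0.03. The value of Lsm14a rested on 1 spot: 1 of its 3 probes read -1.73 on null replicate 3 and 0.17 to 0.56 on the other arrays. Without null replicate 3 its difference was 0.04.

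SF3A and SF3B genes had a median difference of -0.01. Sf3a1, which encodes a subunit of SF3A, read -0.32, -0.20, -0.17 and -0.05 in null hearts. On wildtype replicates 2 to 4 it read -0.10, 0.05 and 0.23, with no value on wildtype replicate 1. Only null replicate 4 lay above the lowest wildtype value, and the difference was -0.25 (SE 0.13, unadjusted p = 0.0792 and adjusted p = 0.613 in limma). Sf3a3, of the same complex, had a difference of 0.04 (SE 0.10). Sf3b1 read 0.33, 0.38, 0.52 and 0.33 in null hearts and 0.42, 0.50, 0.47 and 0.69 in wildtype hearts, a difference of -0.13 (SE 0.11). Its 5 probes gave differences from -0.35 to 0.11. Sf3b2, Sf3b3 and Sf3b6 had 0.07, 0.08 and -0.06.

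Prpf38a, whose product is needed to activate the assembled spliceosome in yeast, read -0.34, 0.11, 0.10 and 0.08 in null hearts. On wildtype replicates 1, 3 and 4 it read 0.56, 0.26 and 0.30, and it had no value on wildtype replicate 2. All 4 null values lay below the 3 wildtype values, with null replicate 1 far below the other null arrays. The difference was -0.39 (SE 0.15, 95% interval -0.72 to -0.06, unadjusted p = 0.0252, adjusted p = 0.568 in limma), or 1.31-fold lower in null hearts. It was -0.29 without wildtype replicate 1 (unadjusted p = 0.0869) and -0.28 without null replicate 1. The gene had a single probe.

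Over the Prpf group the median difference was -0.04, with 4 of 8 positive. Prpf3, of the U4/U6 particle, had the smallest p of all 55 genes in the direction of higher values. It read 0.14, 0.08, 0.39 and 0.15 in null hearts, and 0.11, -0.06, 0.16 and -0.10 in wildtype hearts. Its groups overlapped, and the difference was 0.16 (SE 0.11, adjusted p = 0.706 in limma), with 0.15 and 0.20 on its 2 probes. Prpf38b, a relative of Prpf38a, read 0.17, 0.0069, 0.17 and 0.08 in null hearts and -0.17, 0.11, 0.03 and -0.08 in wildtype hearts, a difference of 0.13 (SE 0.11) that was opposite in sign to that of Prpf38a. Prpf8 had the smallest difference in size of all 55 genes, 0.00075 (SE 0.11).

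SR protein genes had a median difference of 0.0067, with 4 of 7 positive, against 2 of 7 without wildtype replicate 1. Srsf2, which encodes SC35, a factor of exon recognition required in heart muscle cells of the mouse, read 0.20, 0.12, 0.06 and 0.08 in null hearts, and 0.42, 0.36, 0.42 and 0.18 in wildtype hearts. Wildtype replicate 4 lay inside the null range and the other 3 wildtype arrays above it. The difference was -0.23 (SE 0.10, 95% interval -0.45 to -0.0035, unadjusted p = 0.0471, adjusted p = 0.594 in limma), or -0.20 without wildtype replicate 1 (unadjusted p = 0.0747). Its 2 probes were unlike, at -0.43 and -0.03. Srsf10, a splicing repressor when it loses its phosphates, read -0.08, -0.16, -0.25 and -0.02 in null hearts, and -0.04, 0.0067, 0.07 and -0.02 in wildtype hearts. Its difference was -0.14 (SE 0.10), with -0.35 to 0.15 on 3 probes.

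Srsf1, the founding SR protein, whose loss in mouse heart muscle disturbs postnatal splicing, went the other way in value. It read 0.25, 0.13, 0.28 and 0.20 in null hearts, and -0.29, 0.21, 0.30 and -0.04 in wildtype hearts. The null values lay inside the wildtype range, and the difference was 0.17 (SE 0.14, adjusted p = 0.739 in limma). Of its 3 probes 1 read -1.23 on wildtype replicate 1, and without that array the difference was 0.06. Srsf3, Srsf4, Srsf9 and Srsf11 had differences of 0.05, -0.04, 0.0067 and 0.06.

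**Figure D4:**
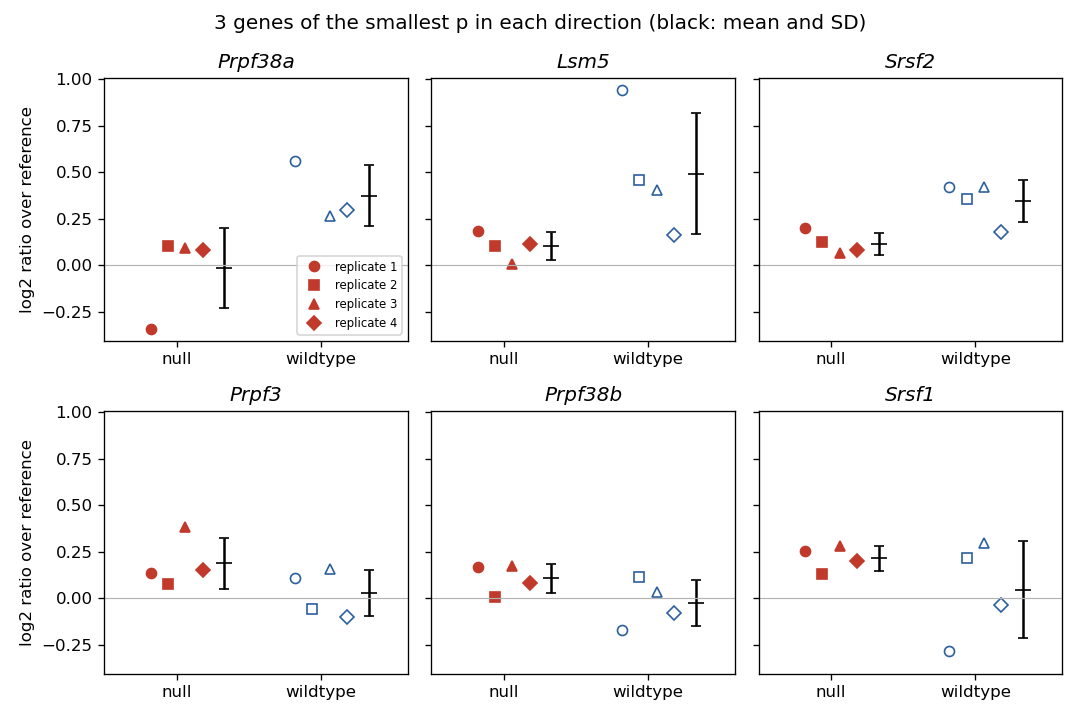
Log2 ratio over reference on each array for the 3 genes of the smallest p in each direction, with null arrays filled and wildtype arrays open. Marker shapes are replicate numbers, and the black bars give the mean and SD of a genotype. In the upper row Prpf38a alone has groups that do not overlap, and Lsm5 reads 0.94 on wildtype replicate 1; in the lower row Prpf3, Prpf38b and Srsf1 overlap.

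hnRNP genes had positive differences for 12 of 17 and a median of 0.07, against 7 of 17 and a median of -0.02 without wildtype replicate 1. Hnrnph2, a regulator that binds runs of guanine, read 0.40, 0.64, 0.53 and 0.51 in null hearts, and 0.19, 0.49, 0.31 and 0.56 in wildtype hearts. Its groups overlapped, and the difference was 0.13 (SE 0.12, adjusted p = 0.756 in limma). Hnrnpc, which binds runs of uridine, read 0.34, 0.26, 0.16 and 0.24 in null hearts and -0.19, 0.26, 0.09 and 0.29 in wildtype hearts. Its difference of 0.13 (SE 0.12) was 0.03 without wildtype replicate 1. Hnrnpa1 had 0.13 (SE 0.12, adjusted p = 0.773), with positive values of 0.03 to 0.23 on its 4 probes.

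Among hnRNP genes with negative differences, Hnrnpk, which binds runs of cytosine, had the smallest p. It read 0.37, 0.35, 0.28 and 0.47 in null hearts, and 0.66, 0.38, 0.44 and 0.65 in wildtype hearts, a difference of -0.16 (SE 0.11, adjusted p = 0.687 in limma). Null replicate 4 lay above the lower 2 wildtype arrays and the other 3 null arrays lay below all of them. The 2 probes of Hnrnpk gave differences of -0.29 and -0.04. Hnrnpm read -0.37, -0.28, -0.47 and 0.10 in null hearts and 0.60, -0.13, -0.49 and 0.08 in wildtype hearts. Its difference of -0.27 (SE 0.21) was -0.08 without wildtype replicate 1, and its 2 probes were unlike, at -0.55 and -0.09. Hnrnpr, Hnrnpll and Hnrnpf had -0.15, -0.11 and -0.05. The other 9 genes of the group had positive values, from 0.03 for Hnrnpa3 to 0.11 for Hnrnpul2.

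Repeated probes showed how far a single spot can be read. Of the 55 genes 32 had several probes, and for 15 of these the probes gave differences of opposite sign. For 10 they were also more than 0.3 apart: Hnrnpul1, Lsm14a, Prpf6, Sf3b1, Snrpa1, Snrpe, Srsf1, Srsf10, Srsf11 and Srsf3. The lowest and highest probes were 0.22 apart in the median gene, more than the difference of most genes in the set. By contrast, 2 spots of the same cDNA clone gave differences of 0.09 and 0.03 for Hnrnpa1 and of 0.06 and 0.15 for Srsf3, with median gaps of 0.10 between their values on an array. Related transcripts of the hnRNP and SR families could bind to the same spot, which was not tested.

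The 7 genes below the limit on missing values were Hnrnph1, Lsm12, Prpf39, Sf3b4, Sf3b5, Snrpc and Snrpd1. Lsm12, Prpf39 and Snrpd1 had a value on 0 arrays. Hnrnph1, a close relative of Hnrnph2, read -0.06, 0.22, 0.36 and 0.23 on the 4 null arrays and 0.23 on wildtype replicate 4, the only wildtype array with a value. The others had values on at most 2 arrays of a genotype, so that no difference was computed for any of the 7.

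Other genes of splicing were counted from 3 lists that share no gene with the 55. Of 59 further proteins of the core spliceosome 35 were measured. Among them 30 had negative differences and 5 positive ones, with a median of -0.07, against -0.04 for all features, and 0 passed the adjusted test. Without wildtype replicate 1 the counts were 27 and 8 and the median was -0.04. Their mean level was -0.02 to 0.08 on null arrays and 0.06 to 0.24 on wildtype arrays, with the highest value on wildtype replicate 1. Syf2 (-0.24, SE 0.11), Ppie (-0.20, SE 0.10) and Phf5a (-0.17, SE 0.09), the last a subunit of SF3B, had the smallest p-values in that direction. Ddx39a, an RNA helicase of mRNA export, had 0.25 (SE 0.13), Ppil1 0.13 (SE 0.11) and Snu13 0.07 (SE 0.12).

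In the list of the exon junction complex and of Sm ring assembly 15 of 25 genes were measured, 10 with positive differences, and 0 passed; without wildtype replicate 1 there were 5 with positive differences. Gemin4, of the complex that loads Sm rings, had 0.35 (SE 0.13, unadjusted p = 0.0197 and adjusted p = 0.558 in limma), with all 4 null values above the wildtype values. Clns1a, which brings Sm proteins to that complex, had -0.27 (SE 0.11), Ddx20 -0.22 (SE 0.11) and Strap -0.15 (SE 0.10). The null values of Clns1a and those of Ddx20 lay below all wildtype values of the same gene. Eif4a3, the helicase of the exon junction complex, had 0.21 (SE 0.11) and Rnps1 0.27 (SE 0.17). Assembly genes thus had values in both directions.

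Of 56 regulators of splicing 43 were measured, 21 with positive and 22 with negative differences, a median of -0.01, and 0 passed. Without wildtype replicate 1 the counts were 24 and 19 and the median was 0.03. Nono, a protein of nuclear paraspeckles, had 0.30 (SE 0.11, adjusted p = 0.554 in limma), with null values of 0.71, 0.60, 0.79 and 0.50 above wildtype values of 0.28, 0.44, 0.31 and 0.38. Ddx17, an RNA helicase, had 0.42 (SE 0.16), and Fubp1 0.21 (SE 0.11). Celf2, whose family takes part in the fetal splicing programme of the heart, had -0.21 (SE 0.10), Ptbp2 -0.30 (SE 0.15) and the cold-inducible gene Cirbp -0.41 (SE 0.24). Of the 93 measured genes of the 3 lists, 2 had groups that did not overlap with higher null values, Gemin4 and Nono, against 2% of all features. With lower null values there were 6, against 5.54% of all features: Syf2, Phf5a, Snw1, Clns1a, Ddx20 and Celf2.

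Markers of cell types and of cell division were read beside these results. The cell cycle list, 41 of 44 genes measured, had mean levels of 0.41 to 0.54 on null arrays and 0.14 to 0.41 on wildtype arrays. The lowest value was on wildtype replicate 1. Differences were positive for 32 of the 41 with a median of 0.19, against 40.9% of all features. Without wildtype replicate 1 they were positive for 31 with a median of 0.14. Genes of other adult tissues, 10 of 28 measured, had -2.82 to -2.34 on null arrays and -2.35 to -1.81 on wildtype arrays. Mean levels of endothelial markers (8 of 12 measured) were 0.52 to 0.66 on null arrays. They were 0.76, 0.33, 0.38 and 0.43 on wildtype replicates 1 to 4. Differences were positive for 7 of the 8 with a median of 0.15. Without wildtype replicate 1 they were positive for 8 of 8 with a median of 0.24. Mean levels of fibroblast markers (6 of 11) were 0.53 to 0.67 on null arrays and 0.32 to 0.62 on wildtype arrays. Their lowest value was on wildtype replicate 1. Erythroid markers (8 of 14) had -0.12 to 0.08 on null arrays and -0.57 to 0.05 on wildtype arrays, and macrophage and leukocyte markers (4 of 12) had -0.93 to -0.62 on null arrays and -1.01 to -0.64 on wildtype arrays. Sarcomere genes (10 of 22) had 0.78 to 1.01 on null arrays and 0.66 to 0.89 on wildtype arrays, again with the lowest value on wildtype replicate 1. The part of any of these in the values of the splicing genes was not tested.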

How the data were processed

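The authors deposited 1 table of log2 ratios of the 2 dyes, 28704 spots by 8 arrays; that the base is 2 was taken from the values. Within blocks of 598 rows, some pairs of spots differed by the log of a quotient of whole numbers up to 120 (tolerance 1.5e-09). Of 31304440 pairs, 8347 did so in base 2, 269 in base e and 863 in base 10. No source used here gives the scanner software, background correction, spot filter or scaling. The platform annotation gave 18511 probes 1 symbol and 937 several, and 9256 are unnamed here. The median of each array was subtracted. Probes read on 3 or more arrays per genotype were combined per gene through a model with probe and array terms. The genotypes were compared in limma 3.58.1 (R 4.3.3) with lmFit and eBayes, no trend, all 8 arrays, and Benjamini-Hochberg adjustment over all 11804 features; a missing array was dropped for that gene. The scripts were tested on simulated data. Python 3.11.15, pandas 2.3.3 and matplotlib 3.10.9 made the tables and figures. No label says that pools came from separate litters, so p-values measure only the spread between pools. The genes, lists and tests were chosen with earlier results of these data known. Given with every array are Gja1, the 8 genes of smallest p in each direction and any whose groups do not overlap. By level, the highest and lowest gene of each symbol group are named, and by probe, genes with opposite signs over 0.3 apart. From each further list come the 3 genes of smallest p in each direction. Genes named beside these were picked after their values were seen. Alternatives were other scalings, missing-value limits, probe rules and variance models, each array left out, and a replicate block.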

Additional observations from a re-analysis of the deposited data

Results flagged for a closer look

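Among groups of 4 arrays for Gja1 and the 55 genes, 9 of 105 held an array far from the other 3 (Dixon's test). For independent normal values that test marks about 1 group in 20. The groups share the same 8 arrays, so the count cannot be judged against that rate. Wildtype replicate 1 was the distant array for 4 of the 9, all of them low: Hnrnpa3 read -0.095 there against 0.40 to 0.43 on the other wildtype arrays, Hnrnpab 0.088 against 0.52 to 0.60, Snrpe -0.34 against 0.22 to 0.29, and Srsf3 -0.020 against 0.40 to 0.46. Null replicate 3 was distant for Hnrnpdl, at 0.76 against 0.10 to 0.19 on the other null arrays, and for Lsm14a, at -0.40 against 0.18 to 0.27. Null replicate 1 was distant for Prpf38a, at -0.34 against 0.08 to 0.11. Null replicate 4 was distant for Snrpf, at 0.45 against 0.25 to 0.27. Wildtype replicate 4 was distant for Hnrnpf, at 0.32 against 0.48 to 0.50.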

How the results depend on the processing

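The number of splicing genes past an adjusted p of 0.05 was 0 in limma under all 20 alternatives, with a smallest adjusted p of 0.404, as was the number of all features. At an unadjusted p under 0.05, 0 of the genes had higher values under each alternative. The count with lower values, 3 as reported, was 7 of 106 when each probe stood as its own feature, and 4 of 55 without centring. All features at that p, in either direction, numbered 972 as reported, 1300 with each probe apart and 1392 without centring. Their share by direction was not computed for the alternatives. With an array left out the count of splicing genes with lower values was 0 to 3. It was 0 without wildtype replicate 1 and 1 each without null replicate 2 or 3. With the replicate block it was 1; same-numbered pools did not deviate together (correlations of -0.24, -0.0090, -0.25 and -0.02 for numbers 1 to 4), so that the numbers are not taken as pairs. The median difference of the 55 genes, 0.03 as reported, was -0.13 without centring, where that of all features was -0.18, and -0.029 with array weights; with an array left out it was -0.027 to 0.039, and with arrays scaled to equal spread -0.0051, so that its sign is not settled. The median of the further splicing genes, -0.05 as reported, was -0.20 without centring. Centring within blocks of spots was added after seeing the data and gave a median of 0.03 for the 55 genes. Of the 55 genes 18 kept the sign of their difference in every alternative that gave the gene a single value. That leaves out the alternative with each probe as its own feature. Only Lsm6, Prpf3 and Snrpg among the 18 had positive differences. Without centring the differences moved down together, which can turn a small positive sign but not a negative one. The count of 18 therefore does not treat the 2 directions alike. Among the 18, Srsf10 and Prpf31 had probes of opposite sign, at -0.35 to 0.15 and -0.17 to 0.04. The cause of these shifts was not tested. The number of arrays, 4 a genotype, limits the precision.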
